A study of Mus musculus with 2 samples.

Results

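The 9 genes described here encode proteins that make androgens from cholesterol or reduce testosterone to its more potent form. They are Star, Cyp11a1, Cyp17a1, Hsd3b1, Hsd3b6, Hsd17b3, Srd5a1, Srd5a2 and Srd5a3, taken by symbol from a deposited table of 54532 genes, and each symbol stood on 1 line. Their transcripts were measured by RNA sequencing in mouse material labelled as adipose, from Trappc9 knockout (KO) and wild-type (WT) mice aged 3 to 4 weeks, with no treatment named and with 1 library per genotype. The design text describes collagenase-digested abdominal fat pads of 3 mice per genotype, whereas the titles name stem cells derived from fat and the extraction label names frozen pads. Whether the mice were pooled, how the knockout was made, and the strain and sex are not given in the sources used here.

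In steroid-making cells, the product of Star delivers cholesterol into mitochondria, where the enzyme encoded by Cyp11a1 cuts off the side chain to give pregnenolone. The products of Cyp17a1, of the Hsd3b genes and of Hsd17b3 then lead to testosterone, a route best known from the Leydig cells of the testis. Target tissues such as the epididymis and prostate can reduce testosterone to dihydrotestosterone through 5-alpha reductases encoded by Srd5a1 and Srd5a2. Srd5a3 belongs to the same family but its product is known mainly for reducing polyprenol to dolichol, the lipid carrier used in protein N-glycosylation.

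Each genotype had a single library, so the differences below have no replicates behind them and carry no p-values. Values are FPKM, fragments per kilobase of gene length after scaling for library size, and the whole fragments behind them could be recovered. The depth was 14783728 fragments in the library labelled KO and 13705193 in the library labelled WT. Trappc9, the targeted gene, stood at 12.6 FPKM in the library labelled KO and 9.94 FPKM in the library labelled WT, a ratio of 1.27 with a 95% counting interval of 1.17 to 1.37. A value for the whole gene cannot show a partial deletion, but Trappc9 was higher, not lower, under the KO label, so each library is called by its label and every direction rests on that label. Although the material is labelled as adipose, markers of the epididymis were among the most abundant transcripts of both libraries. Adipocyte markers were low by comparison, while all 6 adipose progenitor markers examined averaged 1 FPKM or more. The intervals measure counting error and leave out variation between mice or preparations. In such bulk samples, fewer cells of a type and less RNA per cell cannot be told apart.

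The members divided into a strongly expressed reductase, a small group at intermediate levels and a group near 0. Srd5a2 was far above the other members. Srd5a1, Srd5a3, Cyp17a1 and Star lay between 2 and 11 FPKM in both libraries. Cyp11a1, Hsd3b1, Hsd3b6 and Hsd17b3 stayed below 1 FPKM in both. Between the libraries, Cyp17a1 and Srd5a1 were higher in the one labelled KO, and Srd5a2 and Srd5a3 were slightly lower there.

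**Figure D1:**
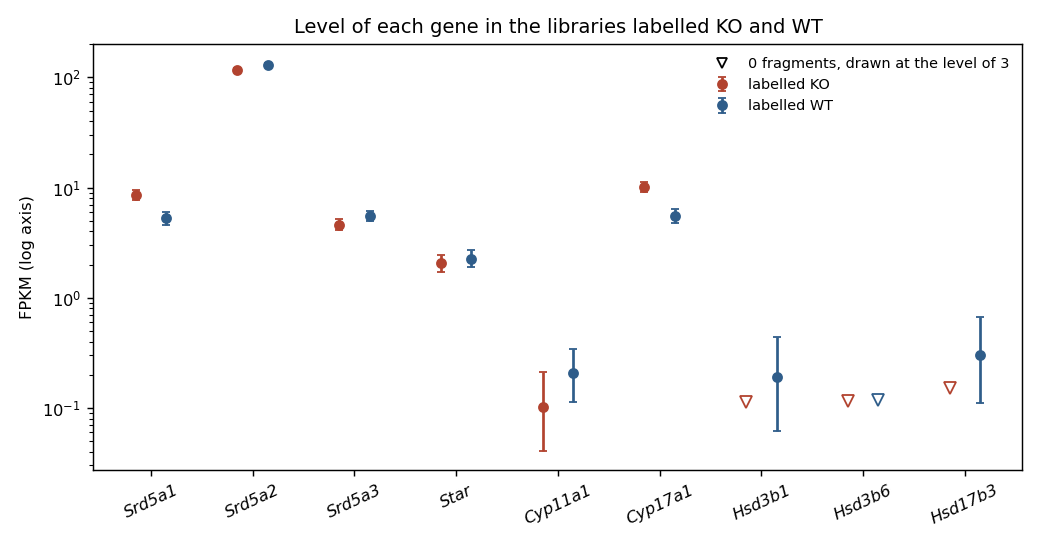
FPKM (log axis) of the 9 genes in the library labelled KO (red) and the library labelled WT (blue), 1 library each. Bars are exact 95% Poisson intervals from the fragments, and open triangles mark genes with 0 fragments, drawn at the level that 3 fragments would give. Srd5a2 stands at 116 FPKM in the library labelled KO and 129 FPKM in the library labelled WT, and Hsd3b6 has 0 fragments in both libraries.

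Srd5a2, the reductase typical of androgen target organs, was measured at 116 FPKM in the library labelled KO (2674 fragments) and 129 FPKM in the library labelled WT (2942 fragments). It stood above 98.4% of the protein-coding genes in the library labelled KO and above 98.8% in the library labelled WT. Its ratio of KO over WT was 0.900, with an interval of 0.854 to 0.949. The library labelled KO was thus lower by a small amount that exceeded counting error.

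Srd5a1, the family member found in many tissues, was at 8.51 FPKM in the library labelled KO (354 fragments) and 5.27 FPKM in the library labelled WT (217 fragments). The ratio was 1.62, with an interval of 1.36 to 1.92, so this reductase ran opposite to Srd5a2. Its place among protein-coding genes was above 73.2% of them in the library labelled KO and above 63.9% in the library labelled WT.

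Srd5a3, the gene for the polyprenol reductase, was at 4.59 FPKM in the library labelled KO (305 fragments) and 5.50 FPKM in the library labelled WT (362 fragments). Its ratio was 0.834, with an interval of 0.714 to 0.974, and it was lower in the library labelled KO beyond counting error. Added together, the 3 reductases reached 130 FPKM in the library labelled KO and 140 FPKM in the library labelled WT. Srd5a2 made up 89.9% of this sum in the library labelled KO and 92.3% in the library labelled WT. Srd5a2 thus dominated the family in both libraries. The share of Srd5a1 was 6.57% in the library labelled KO and 3.76% in the library labelled WT.

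The bases just upstream of the 3 reductase genes are shown because these genes share a feature that the choice of members did not use, the GC box GGGCGG, a motif bound by SP-family factors. The sequences are from RefSeq (GRCm38.p6), cut where the annotated transcript of either RefSeq or GENCODE begins, and capitals mark GC boxes on either strand.
Srd5a1: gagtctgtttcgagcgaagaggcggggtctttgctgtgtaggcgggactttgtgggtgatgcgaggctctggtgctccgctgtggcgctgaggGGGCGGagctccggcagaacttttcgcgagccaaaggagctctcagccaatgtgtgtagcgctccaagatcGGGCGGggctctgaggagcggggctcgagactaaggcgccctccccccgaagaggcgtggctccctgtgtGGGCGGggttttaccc
Srd5a2: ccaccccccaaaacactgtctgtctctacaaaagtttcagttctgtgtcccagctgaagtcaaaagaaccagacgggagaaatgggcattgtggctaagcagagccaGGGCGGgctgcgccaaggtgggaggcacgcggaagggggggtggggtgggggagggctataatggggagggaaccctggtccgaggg
Srd5a3: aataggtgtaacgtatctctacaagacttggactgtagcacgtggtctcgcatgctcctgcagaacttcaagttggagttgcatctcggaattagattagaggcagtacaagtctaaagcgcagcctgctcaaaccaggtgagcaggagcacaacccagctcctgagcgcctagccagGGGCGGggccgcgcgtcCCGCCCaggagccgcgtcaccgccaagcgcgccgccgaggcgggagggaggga

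These stretches lie on the minus strand at chr13:69611464-69611713 for Srd5a1, on the minus strand at chr17:74047917-74048110 for Srd5a2 and on the plus strand at chr5:76140023-76140270 for Srd5a3. The full RefSeq windows, from 250 bases before to 50 bases after each start, held 4 GC boxes for Srd5a1, 2 for Srd5a2 and 3 for Srd5a3. At least 1 GC box was present in 35.7% of all 32851 such mouse windows. None of the 3 reductase windows held the TATA box letters TATAAA on either strand, which 13.6% of all windows held. The same 3 windows had no nuclear receptor half-site AGGTCA, present in 16.3% of all windows, and no half-site of androgen-type response elements, AGAACA, present in 19.0%. The windows of Hsd3b1, Hsd3b6 and Hsd17b3 had 0 GC boxes, and that of Hsd3b6 held AGAACA at 2 places. Cyp11a1 had a pair of windows, of which 1 held a GC box and the other an AGGTCA half-site. A match to such letters is a description of the window and not evidence of binding. Cyp17a1 and Star were not among the 7 members matched in the promoter table.

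The reductases occupy separate places in the genome. By the table's coordinates (mm10), Srd5a1 spans chromosome 13 from 69573449 to 69611442, Srd5a2 spans chromosome 17 from 74016955 to 74047916, and Srd5a3 spans chromosome 5 from 76140271 to 76155504. Their coding sequences were about equally distant from each other. Identical bases made up 58.5% between Srd5a1 and Srd5a2, 59.0% between Srd5a1 and Srd5a3 and 57.9% between Srd5a2 and Srd5a3. The 50-base words of their transcripts were not shared within the family. For Srd5a1, 15.1% of these words also occurred in Gm17108, an overlapping annotated transcript listed at 0.0972 FPKM in the library labelled KO and 0.221 FPKM in the library labelled WT. For Srd5a2, 6.23% were shared with CT025731.1, listed at 0.0935 FPKM in the library labelled KO and at 0 in the library labelled WT.

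Star, the cholesterol carrier (chromosome 8, 25806555 to 25815982), was at 2.06 FPKM in the library labelled KO (121 fragments) and 2.27 FPKM in the library labelled WT (132 fragments). Its ratio of 0.908 had an interval of 0.703 to 1.17, so a difference of Star was not detectable at this depth. It ranked near the middle of the protein-coding genes, above 48.9% of them in the library labelled KO and 49.8% in the library labelled WT.

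Cyp11a1 (chromosome 9, 58006411 to 58027023), whose product performs the first enzymatic step of steroid synthesis, was close to the detection limit. It had 7 fragments (0.102 FPKM) in the library labelled KO and 14 fragments (0.206 FPKM) in the library labelled WT. The interval of its ratio, 0.169 to 1.31, included no change. An overlapping noncoding gene, Gm17322, shares 145 of its exon bases on the same strand. It was listed at 1.93 FPKM in the library labelled KO and 1.37 FPKM in the library labelled WT, far above Cyp11a1, and how shared reads were assigned was not tested.

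Cyp17a1, whose product has the hydroxylase and lyase activities that turn progestins into androgens, was the most abundant synthesis gene. It lies on chromosome 19 from 46667165 to 46672974 and was at 10.1 FPKM in the library labelled KO (314 fragments) and 5.54 FPKM in the library labelled WT (170 fragments). The ratio of 1.83, with an interval of 1.51 to 2.22, was the highest among the members with fragments in both libraries. Cyp17a1 stood above 76.7% of the protein-coding genes in the library labelled KO and above 65.0% in the library labelled WT.

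Transcripts for the later steps toward testosterone were at or near the limit of detection. Hsd3b1, the 3-beta hydroxysteroid dehydrogenase gene of mouse steroid-making tissues (chromosome 3, 98852194 to 98859794), had 0 fragments in the library labelled KO, which allows up to 0.113 FPKM, and 5 fragments (0.190 FPKM) in the library labelled WT. Hsd3b6, its relative known from adult mouse Leydig cells (chromosome 3, 98805504 to 98814443), had 0 fragments in either library. If a count of 0 is taken to allow 3 fragments, this is up to 0.116 FPKM in the library labelled KO and 0.118 FPKM in the library labelled WT. The levels of Hsd3b1 and Hsd3b6 are uncertain, since their coding sequences are identical at 1007 of 1119 bases and 15.7% of the 50-base words of Hsd3b6 occur in other genes. The 6 Hsd3b genes of the chromosome 3 cluster together had 0 fragments in the library labelled KO and 10 in the library labelled WT. This sum holds only fragments that were assigned to a copy. Whether reads matching several copies were left out is not known, so the true level may be higher.

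Hsd17b3, whose product makes testosterone from androstenedione in the testis (chromosome 13, 64058266 to 64089230), had 0 fragments in the library labelled KO, which allows up to 0.151 FPKM, and 6 fragments (0.305 FPKM) in the library labelled WT. The interval of its ratio ran from 0 to 0.841 and left out no change, although 6 fragments are few.

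Of the 9 members, 5 averaged 1 FPKM or more over both libraries, and these alone entered the counts that follow. Differences were taken as log2((KO + 1)/(WT + 1)), where the added 1 FPKM understates changes of low genes. On this scale 0 of the 5 reached 2-fold, against 1.24% of the 13084 protein-coding genes that averaged 1 FPKM or more, of which 0.948% were higher and 0.29% lower. Beyond counting error, 2 were higher (Cyp17a1 and Srd5a1), against 24.6% of all these genes, and 2 were lower (Srd5a2 and Srd5a3), against 17.6%. At 1.5-fold, Cyp17a1 (log2 ratio 0.77) and Srd5a1 (0.60) were past the threshold. Among all 13084 genes, 4.9% were at least 1.5-fold apart and 2.79% at least 1.5-fold higher. Only 1.67% of the 13084 genes had a higher log2 ratio than Cyp17a1 and 2.68% a higher one than Srd5a1. Srd5a2 (log2 ratio −0.15), Srd5a3 (−0.22) and Star (−0.10) lay inside the middle 90% of all genes, which ran from −0.41 to 0.44. The directions of Cyp17a1, Srd5a1, Srd5a2 and Srd5a3 beyond counting error were the same under each of the 3 other scalings of the libraries that were tried.

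**Figure D2:**
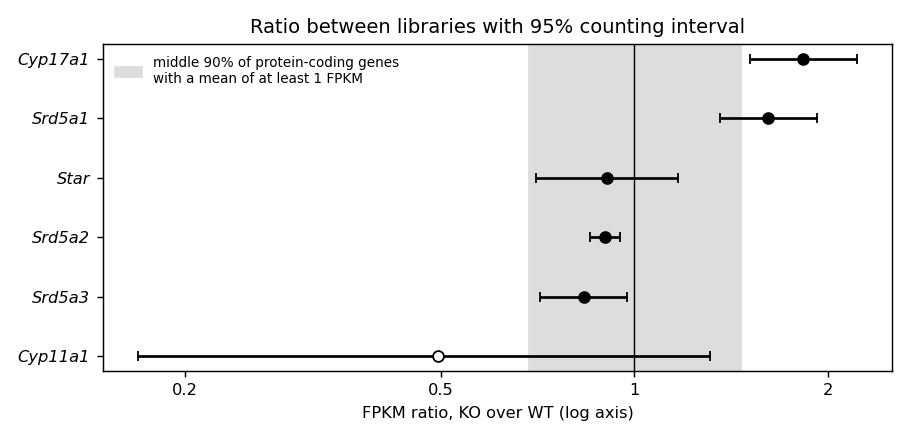
Ratio of FPKM, KO over WT (log axis), for the 6 genes with fragments in both libraries, with exact 95% Clopper-Pearson counting intervals. The grey band holds the middle 90% of the protein-coding genes averaging 1 FPKM or more, and the open point is Cyp11a1, whose mean is lower. Cyp17a1 (1.83) and Srd5a1 (1.62) lie to the right of the band, and Srd5a2 (0.900) and Srd5a3 (0.834) within it.

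Ratios between members inside a library do not depend on how the libraries were scaled to each other, and 8 pairs were compared in this way. Per length, Srd5a2 exceeded Srd5a1 by 13.7-fold in the library labelled KO (interval 12.2 to 15.3) and by 24.6-fold in the library labelled WT (21.4 to 28.3). The ratio in the library labelled KO was 0.557 of that in the library labelled WT, with an exact conditional interval of 0.465 to 0.667. Srd5a1 was 1.85 times the level of Srd5a3 in the library labelled KO and 0.958 times in the library labelled WT. Srd5a2 over Srd5a3 was closer, at 25.4 in the library labelled KO and 23.5 in the library labelled WT, and the interval of the change, 0.915 to 1.27, included 1.

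The level of Cyp17a1 relative to the genes of the preceding steps was higher in the library labelled KO. It was 4.93 times the level of Star in the library labelled KO (interval 3.98 to 6.13) and 2.45 times in the library labelled WT (1.94 to 3.09), a change of 2.01 with an interval of 1.46 to 2.78. Against Cyp11a1 it was 99.5 times as high in the library labelled KO and 26.9 times in the library labelled WT, with wide intervals because Cyp11a1 had few fragments. Relative to Srd5a1, Cyp17a1 stood at 1.19 in the library labelled KO and 1.05 in the library labelled WT. The interval of that change, 0.873 to 1.47, included 1, so the levels of Cyp17a1 and Srd5a1 kept a ratio that did not differ beyond counting error.

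**Figure D3:**
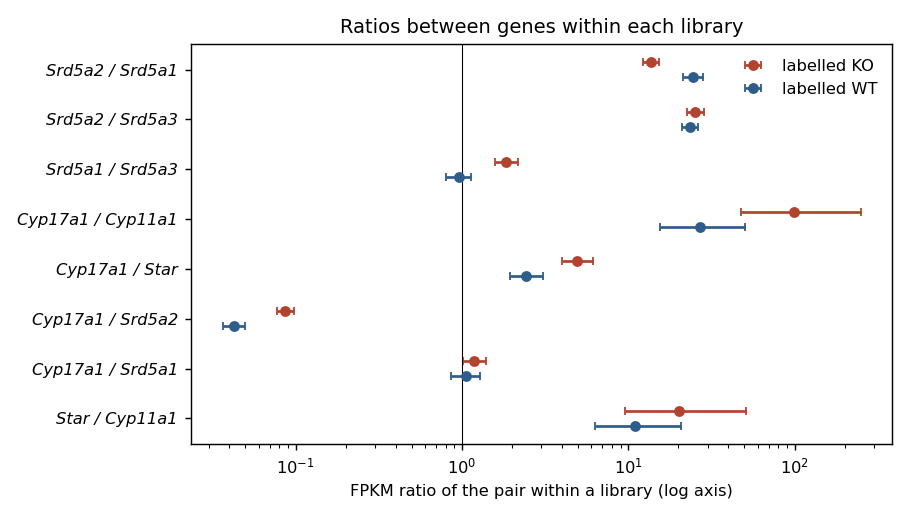
FPKM ratio of 8 pairs of genes within the library labelled KO (red, upper) and the library labelled WT (blue, lower) on a log axis, with exact 95% counting intervals. Srd5a2 over Srd5a1 is lower in the library labelled KO (13.7) than in the library labelled WT (24.6), whereas Cyp17a1 over Srd5a1 stays near 1 in both.

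Other genes of steroid metabolism were examined next. A list of 75 further pathway genes was used, of which 71 symbols were in the table and 43 averaged 1 FPKM or more (called measured from here on). None of the 43 reached 2-fold on the log2((KO + 1)/(WT + 1)) scale, against 1.24% of all measured genes. With a share that low, a count of 0 among 43 says little about the pathway. Without the added 1 FPKM, the ratio of Hsd11b1 was 2.11 and that of Stard6 was 1.95. Beyond counting error, 16 of the 43 were higher and 7 lower in the library labelled KO, against 24.6% higher and 17.6% lower among all measured genes. After rescaling to equal sums of FPKM (TPM), 7 were higher and 16 lower, against 7.88% higher and 48.4% lower among all measured genes. These counts therefore give no direction for the pathway as a whole. The median log2 ratio of all measured genes was 0.02 as deposited and −0.15 after that rescaling.

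Cholesterol supply was well represented, with all 14 listed genes measured and a median log2 ratio of 0.07. Npc2, a lysosomal cholesterol carrier, was at 205 FPKM in the library labelled KO and 114 FPKM in the library labelled WT (ratio 1.79, interval 1.74 to 1.84). Stard6, a relative of Star, was at 2.09 FPKM in the library labelled KO and 1.07 FPKM in the library labelled WT. Vdac1, a channel of the outer mitochondrial membrane, was at 83.5 FPKM in the library labelled KO and 76.4 FPKM in the library labelled WT, and its direction turned after rescaling to TPM.

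The electron donors on which steroid P450 enzymes depend were present, all 6 of them measured, with a median of 0.15 that turned to −0.051 after rescaling to TPM. Cyb5b was at 105 FPKM in the library labelled KO and 90.5 FPKM in the library labelled WT. Cyb5a, whose product promotes the lyase reaction of the Cyp17a1 enzyme, was at 56.9 FPKM in the library labelled KO and 52.3 FPKM in the library labelled WT. Fdx1, the ferredoxin that serves the Cyp11a1 enzyme, was at 8.02 FPKM in the library labelled KO and 6.30 FPKM in the library labelled WT.

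Among the further 3-beta and 17-beta hydroxysteroid dehydrogenases, 5 of 15 in the table were measured, with a median of −0.0059 as deposited and −0.20 after rescaling to TPM. The abundant ones have roles outside sex steroid synthesis as well. Hsd17b10, a mitochondrial enzyme, was at 38.4 FPKM in the library labelled KO and 38.6 FPKM in the library labelled WT. Hsd17b12, an enzyme of fatty acid elongation, was at 32.6 FPKM in the library labelled KO and 32.7 FPKM in the library labelled WT. Hsd17b11, a lipid droplet enzyme, was higher beyond counting error, at 16.3 FPKM in the library labelled KO and 12.5 FPKM in the library labelled WT. Hsd17b7, which also serves cholesterol synthesis, was lower, at 5.85 FPKM in the library labelled KO and 6.83 FPKM in the library labelled WT.

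Corticoid and oestrogen synthesis had 2 of 6 genes measured. Hsd11b1, whose product regenerates active glucocorticoid, was at 1.92 FPKM in the library labelled KO and 0.913 FPKM in the library labelled WT, a ratio of 2.11 with an interval of 1.52 to 2.96. Hsd11b2, which acts in the reverse direction, was at 2.43 FPKM in the library labelled KO and 2.19 FPKM in the library labelled WT. Cyp19a1, the aromatase gene, had 2 fragments in the library labelled KO and 0 in the library labelled WT.

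Genes of steroid inactivation had 8 of 16 measured, with a median of 0.21 as deposited and 0.070 after rescaling to TPM. Sult1e1, the oestrogen sulfotransferase gene, was at 31.7 FPKM in the library labelled KO and 19.0 FPKM in the library labelled WT (ratio 1.67, interval 1.46 to 1.92). Akr1c13, an aldo-keto reductase gene with close relatives in the same cluster, was at 14.1 FPKM in the library labelled KO and 9.70 FPKM in the library labelled WT. Sult1e1 and Akr1c13 were higher beyond counting error under all 4 scalings. Of the 8 measured, 3 were higher and 1 lower beyond counting error as deposited, against 24.6% higher and 17.6% lower among all measured genes. The lower one was Akr1c19, at 10.7 FPKM in the library labelled KO and 12.7 FPKM in the library labelled WT (ratio 0.839, interval 0.767 to 0.918).

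Of 12 regulators of steroid-making genes, 7 were measured, with a median of −0.010 as deposited and −0.21 after rescaling to TPM. The stimulus-induced nuclear receptor gene Nr4a1 was at 152 FPKM in the library labelled KO and 155 FPKM in the library labelled WT, and Cebpb at 87.1 FPKM in the library labelled KO and 87.7 FPKM in the library labelled WT. Gata6 was lower, at 1.55 FPKM in the library labelled KO and 2.68 FPKM in the library labelled WT (ratio 0.579, interval 0.460 to 0.726). This zinc finger factor gene acts in gonadal and adrenal development. Nr2f2, an orphan nuclear receptor gene, was also lower, at 7.23 FPKM in the library labelled KO and 8.64 FPKM in the library labelled WT. The relatives of the 5-alpha reductases were apart in level. Tecrl had 3 fragments in the library labelled KO and 0 in the library labelled WT, whereas Tecr, a fatty acid elongation gene, was at 121 FPKM in the library labelled KO and 109 FPKM in the library labelled WT.

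**Figure D4:**
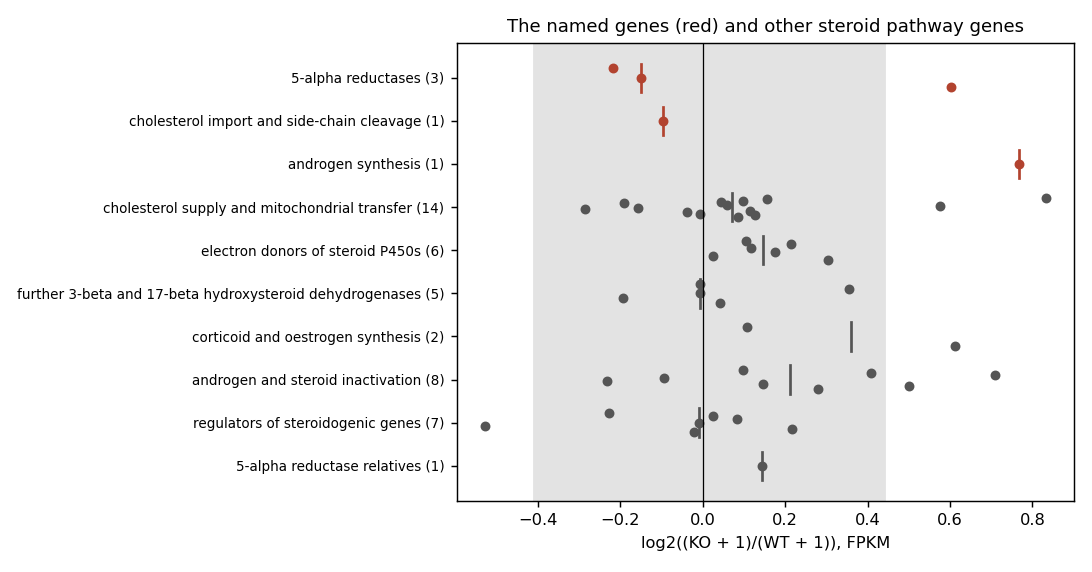
Difference on the scale of log2((KO + 1)/(WT + 1)) for genes averaging 1 FPKM or more (number in brackets), for the members (red) and 7 lists of other steroid pathway genes (grey). Vertical ticks are list medians and the grey band is the middle 90% of all measured protein-coding genes. Srd5a1 (0.60) and Cyp17a1 (0.77) lie right of the band, as do Npc2 (0.83), Sult1e1 (0.71), Hsd11b1 (0.61), Stard6 (0.58) and Akr1c13 (0.50). Gata6 (−0.53) lies left of it.

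The markers of cell types that could carry these transcripts differed widely in level. Of 10 Leydig cell genes, 6 of them members described above, 6 were below 1 FPKM in both libraries. The Leydig hormone gene Insl3 had 15 fragments (1.68 FPKM) in the library labelled KO and 16 fragments (1.81 FPKM) in the library labelled WT, and 64.8% of its exon bases overlap Jak3. Ptgds, which many cell types express, was at 182 FPKM in the library labelled KO and 51.7 FPKM in the library labelled WT, and made up most of the list's summed level of 196 FPKM in the library labelled KO and 62.3 FPKM in the library labelled WT. Adrenal cortex genes summed to 3.31 FPKM in the library labelled KO and 2.85 FPKM in the library labelled WT, with Cyp11b1, Cyp11b2 and Cyp21a1 all at 0 in the library labelled KO and at 7, 2 and 1 fragments in the library labelled WT. Most of the adrenal sum was Akr1b7, an aldo-keto reductase gene that the vas deferens also expresses. It was at 2.73 FPKM in the library labelled KO and 1.49 FPKM in the library labelled WT, a ratio of 1.83 with an interval of 1.13 to 3.05, and its difference was within counting error after rescaling to TPM. The Sertoli cell genes had 5 of 7 below 1 FPKM in both libraries. Fshr was at 0 in the library labelled KO and Rhox5 at 0 in the library labelled WT. Sox9 and Cldn11, which other cell types may also express, made up most of the list's sum. Sox9 was at 27.1 FPKM in the library labelled KO and 28.7 FPKM in the library labelled WT. Cldn11 was at 17.5 FPKM in the library labelled KO and 19.5 FPKM in the library labelled WT.

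Epididymal epithelium, which normally expresses Srd5a2, was strongly represented in material labelled as adipose. All 10 of its markers were measured, ranging from 40.2 to 11686 FPKM in the library labelled KO and from 39.7 to 10039 FPKM in the library labelled WT, and their sum was 26621 FPKM in the library labelled KO and 19329 FPKM in the library labelled WT. This sum was 1.38 times as high in the library labelled KO, or 1.20 times after rescaling to TPM, while Srd5a2 was lower. Per 1000 FPKM of that sum, Srd5a2 amounted to 4.38 FPKM in the library labelled KO and 6.70 FPKM in the library labelled WT. This value depends on the markers summed, which did not move together. Their ratios of KO over WT ran from 1.01 for Ros1 to 3.33 for Lcn9, with 1.16 for Gpx5, the most abundant. After rescaling to TPM, Ros1 was lower in the library labelled KO (ratio 0.879). The spermatid markers also differed, with a sum of 172 FPKM in the library labelled KO and 35.4 FPKM in the library labelled WT. The part of these cell types in the differences of Srd5a1, Srd5a2 and Cyp17a1 was not tested.

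Adipocyte markers were low by comparison. Their sum was 34.6 FPKM in the library labelled KO and 37.5 FPKM in the library labelled WT, most of it Fabp4. Adipoq was at 0.506 FPKM in the library labelled KO and 2.30 FPKM in the library labelled WT, whereas Fabp4 was slightly higher under the KO label (ratio 1.08). Of 5 measured, 1 was higher and 2 lower beyond counting error as deposited, against 24.6% higher and 17.6% lower among all measured genes. After rescaling to TPM, 0 were higher and 3 lower, against 7.88% and 48.4%. The 6 adipose progenitor markers were all measured, with sums of 175 FPKM in the library labelled KO and 197 FPKM in the library labelled WT. They ran both ways, with 2 higher and 4 lower in the library labelled KO beyond counting error. Cd34 was furthest apart, at 27.4 FPKM in the library labelled KO and 52.6 FPKM in the library labelled WT (ratio 0.520), while Ly6a was at 78.9 FPKM in the library labelled KO and 67.5 FPKM in the library labelled WT (ratio 1.17).

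**Figure D5:**
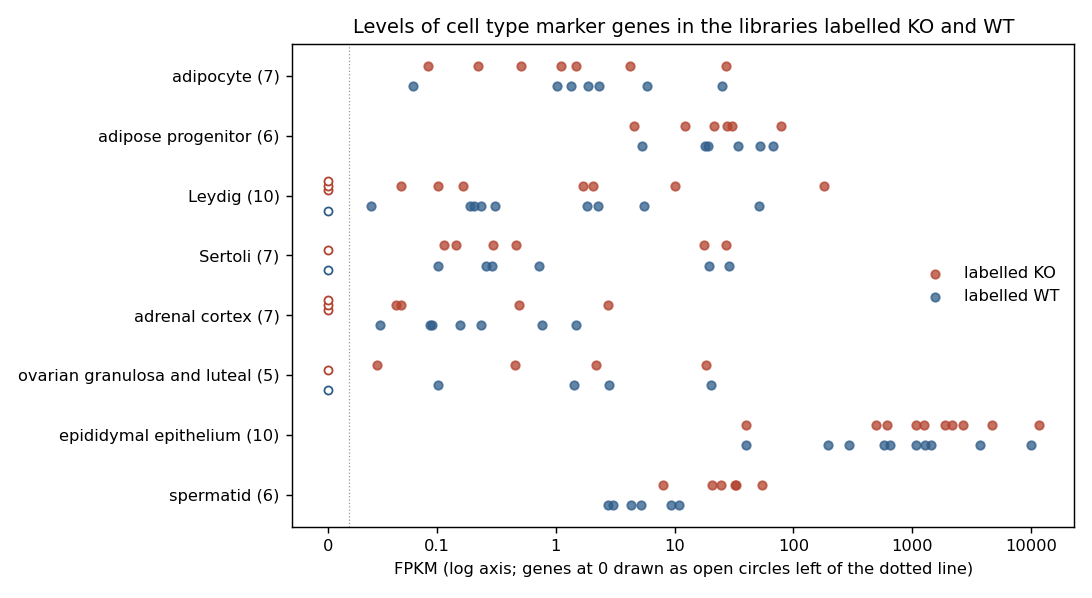
FPKM (log axis) of single marker genes of 8 cell types in the library labelled KO (red, upper row of each pair) and the library labelled WT (blue, lower row), with the number of genes in brackets and genes at 0 as open circles. Epididymal genes reach 11686 FPKM, whereas most Leydig and adrenal cortex genes lie below 1 FPKM.

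Genes known to respond to androgens were examined as a list of 12, several of which are epididymal. Of 10 measured, 9 were higher beyond counting error as deposited, against 24.6% of all measured genes. After rescaling to TPM, 6 were higher and 1 lower, against 7.88% higher and 48.4% lower among all measured genes. These shares are not like for like, because abundant genes pass counting error at small ratios. Gpx5, with 279824 fragments in the library labelled KO, passed at a ratio of 1.16. Lcn5, Crisp1, Adam7 and Gpx5 are also on the epididymal list, and a difference in androgen action was not tested. The median log2 ratio of the measured genes on this list was 0.30 as deposited and 0.12 after that rescaling. Lcn5, an androgen-dependent epididymal lipocalin, was at 2667 FPKM in the library labelled KO and 1284 FPKM in the library labelled WT. Crisp1, a secreted sperm-coat protein, was at 1069 FPKM in the library labelled KO and 583 FPKM in the library labelled WT. Gpx5 and Cst11 differed less, with Gpx5 at 11686 FPKM in the library labelled KO and 10039 FPKM in the library labelled WT, and Cst11 at 2331 FPKM in the library labelled KO and 2052 FPKM in the library labelled WT.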

How the data were processed

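Processed values of 1 library per genotype were used. The deposited table gives FPKM per gene with gene length and position. Per the submitters' processing notes, the aligner was HISAT2 2.0.5 and both mm10 and hg38 are listed as builds. The tool that counted fragments and its annotation are not given there. Of the members, 8 of 9 had the same span in GENCODE M21 (GRCm38), and Cyp17a1 differed. Dividing FPKM times length by the value of 1 fragment in that library gave whole fragments, within 0.01, for 100% of values above 0. The deposited FPKM were compared as they stand. Their denominators differed by 1.01 (KO over WT) and the fragment totals by 1.08.

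Ratios have exact 95% Clopper-Pearson intervals from the fragments, computed in Python 3.11.15 with scipy 1.17.1, and the method was tested on simulated data. A count of 0 was taken to allow 3 fragments. Where a symbol stood on several lines, the one with the larger mean was kept. Members and lists were chosen with earlier results of these data known. All members are named. Other lists are represented by their 2 genes with the highest mean and 2 with the largest log2 ratio. Marker lists are represented by up to 4 genes with the highest mean and those at 0, of which a part is printed. A few further genes, such as Akr1c19, Ros1 and Lcn9, are named besides these. The alternatives tried were other pseudocounts, filters, thresholds and scalings.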

Additional observations from a re-analysis of the deposited data

How the results depend on the processing

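Of the 5 members averaging 1 FPKM or more, 4 differed beyond counting error as deposited and under 3 other scalings. Among all measured genes, 24.6% were higher and 17.6% lower as deposited, and 7.88% higher and 48.4% lower after rescaling to TPM. Below that level, the interval of Hsd17b3 left out no change under each scaling, and that of Hsd3b1 only after rescaling to TPM (0 to 0.939). Of the members that passed the filter on level, 0 reached 2-fold under any of 3 other scalings, 2 other pseudocounts and 2 other filters. Each setting was changed alone. The 2 looser filters could not alter this count, because the members they admitted were below 1 FPKM and 1 FPKM was still added. With 0.1 FPKM added instead, the log2 ratio was −2.02 for Hsd17b3 and −1.54 for Hsd3b1, but the filter on level left these out of the count. At a threshold of 1.5-fold, 2 members, Srd5a1 and Cyp17a1, were past it. The log2 ratio of Cyp17a1 ranged from 0.52 to 0.86, that of Srd5a1 from 0.40 to 0.68, that of Srd5a2 from −0.35 to −0.15 and that of Srd5a3 from −0.39 to −0.13. List medians close to 0 changed sign. After rescaling to TPM the median was −0.11 for cholesterol supply, −0.051 for electron donors and −0.056 for the reductase relatives. For cholesterol supply it was also −0.019 after rescaling by total fragments and −0.0017 after leaving out the 50 most abundant genes. Without the filter on level it was −0.015 for steroid inactivation, −0.0014 for corticoid and oestrogen synthesis and 0.018 for the further dehydrogenases, which stood at 0.13 with a minimum mean of 0.1 FPKM. Over all measured genes, 124 were 2-fold higher and 38 lower as deposited, and 97 higher and 84 lower after rescaling to TPM. The cause of these changes was not tested. Summing the Hsd3b cluster instead of Hsd3b1 alone gave a difference of KO minus WT of −0.278 FPKM, against −0.190 FPKM. Counts below about 15 fragments, as for Cyp11a1, Hsd3b1 and Hsd17b3, limit what can be said of these genes. No paired analysis was possible because each genotype had 1 library, and leaving out a replicate was likewise not possible.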

Other observations

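Low-level genes of the steroid pathway, gonadal and adrenal lists were tallied after their values were seen. Of 32 such genes below 1 FPKM on average, with a fragment in at least 1 library and with the members left out, 6 were lower and 0 higher in the library labelled KO beyond counting error, and 26 were neither. Among all 5190 protein-coding genes at that level, 8.38% were lower and 6.82% higher. The 6 were Nr5a1, Nr0b1, Gata4, Amhr2, Akr1c18 and Cyp11b1. Nr5a1, the transcription factor gene that switches on steroid synthesis, had 3 fragments in the library labelled KO and 14 in the library labelled WT, a ratio of 0.212 with an interval of 0.0391 to 0.760. Nr0b1, a nuclear receptor gene of the same cells, had 1 fragment in the library labelled KO and 14 in the library labelled WT, with an interval of 0.00167 to 0.465. Gata4, a regulator of gonadal somatic cells, had 1 fragment in the library labelled KO and 13 in the library labelled WT, with an interval of 0.00179 to 0.507. Amhr2, the receptor gene for anti-Müllerian hormone, had 13 fragments in the library labelled KO and 40 in the library labelled WT, with an interval of 0.158 to 0.614. Akr1c18, whose product inactivates progesterone, had 4 fragments in the library labelled KO and 15 in the library labelled WT. These genes rest on few fragments of 1 library per genotype. Others of the 32 had more fragments in the library labelled KO, such as Lhcgr with 6 in the library labelled KO and 1 in the library labelled WT, and Rhox5 with 5 in the library labelled KO and 0 in the library labelled WT.

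Inha, the inhibin alpha gene, was far above these genes in level. It stood at 18.4 FPKM from 388 fragments in the library labelled KO and at 20.3 FPKM from 425 fragments in the library labelled WT. Its ratio as deposited, 0.904, had an interval of 0.786 to 1.04, which included no change. Under the other scalings Inha was lower in the library labelled KO beyond counting error. The ratio was 0.786 after rescaling to TPM, 0.846 by total fragments and 0.858 without the 50 most abundant genes. After rescaling to TPM, 48.4% of all measured genes were also lower.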
